A study of Mus musculus with 10 samples.

Results

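The sterol branch of cholesterol synthesis runs from squalene through lanosterol to cholesterol. Its enzymes were taken from the deposited expression table by name, and the 9 genes chosen were *Sqle*, *Lss*, *Cyp51*, *Msmo1*, *Nsdhl*, *Hsd17b7*, *Ebp*, *Sc5d* and *Dhcr7*. They are 9 of the 27024 rows with a gene name. The genes were selected on results of the same comparison of StcE with saline that is described here, so their differences between the groups are a description, with no p-value, and counts of them past a threshold are no test of these genes. All 9 had a mean of at least 1 FPKM over the 10 samples, as did 11062 genes in all. *Lss* came closest to that limit, with 1.18 to 1.43 FPKM in saline.

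RNA came from bEnd.3 cells, an immortalised mouse brain endothelial line. It is a single line, for which no engineered genotype is given. Of the 10 samples, 5 received 5 nM StcE and 5 received saline, each for 16 h. The line was cultured in medium with fetal bovine serum. Whether serum was present during treatment is not stated by the paper for these samples. StcE is a bacterial mucinase, a protease whose substrates are proteins dense in O-linked glycans, and inactive StcE was not analysed here. The saline replicates are numbered 1, 2, 3, 4 and 5 and the StcE replicates 1, 2, 3, 5 and 6. The labels do not say that the samples were separate cultures, so every SD and every p-value measures the spread between these samples, which may be technical.

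Mammalian cells build cholesterol from acetyl-CoA in a long chain of reactions, most of them in the endoplasmic reticulum. After squalene is formed, the sterol branch adds oxygen, closes the rings, strips methyl groups from lanosterol and moves or reduces double bonds until cholesterol is left. When sterols in the endoplasmic reticulum membrane run low, the SREBP2 transcription factor is released by cleavage and raises transcription of these enzymes, and brain endothelial cells both make sterol and take it up from lipoproteins.

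FPKM counts the fragments of a gene per kilobase of its length, after adjustment for how deeply each sample was sequenced. The values corresponded to 21918326 to 29011314 fragments per saline sample (median 23806628) and 21859342 to 33140289 per StcE sample (median 26250070). These totals cover only the 25878 genes whose values came out as whole fragments in all samples, so they understate the full depth. Of the 12 endothelial markers, all 12 were above the limit of 1 FPKM, with summed levels of 1996 to 2132 FPKM in saline and 1929 to 2001 in StcE. With limma and Benjamini-Hochberg adjustment, 7 of them were lower under StcE and 1 was higher, against 6.41% lower and 5.52% higher over all 11062 genes, and the part of this in the differences of the sterol branch was not tested. The calls of *Pecam1*, *Erg*, *Esam* and the higher *Egfl7* were lost in 14, 15, 17 and 13 of 19 alternative fits. The summed neuron and glia markers reached at most 0.422 FPKM and the epithelial markers 0.238 FPKM in any sample. The mural and fibroblast markers summed to 3.34 to 6.54 FPKM in saline and 4.02 to 6.04 in StcE. The microglia and leukocyte markers summed to 19.4 to 21.7 FPKM in saline and 17.7 to 21.2 in StcE, nearly all of it *Cd68*. *Ptprc* and *Cx3cr1* were listed at 0 in every saline sample and reached at most 0.00198 and 0.0283 FPKM in StcE.

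Promoter windows of RefSeq (GRCm38.p6, from 250 bases before to 50 after a start) were read for 8 of the 9 genes, all but *Sqle*, and held 10 starts because *Dhcr7* has 3. The windows were searched on both strands for a sterol response element, spelled TCACNCCAC, for the NF-Y box CCAAT, for the GC box GGGCGG and for the E-box CACGTG. The 4 stretches that follow lie upstream of a start, ending 50 bases before it in *Cyp51*, 18 in *Lss* and at the base before it in *Sc5d* and *Ebp*, and show *Cyp51* with one of the largest differences, *Lss* with the lowest level, *Sc5d* with an E-box and *Ebp*, whose level hardly differed. Capitals mark the motifs on either strand, so ATTGG is CCAAT read from the other strand. The TGACGCCAC of *Cyp51* differs from the spelling TCACNCCAC by 1 base, and 24.2% of all windows hold such a match. It is not shown to be a sterol response element, and other spellings of that element were not searched.
Cyp51 (chr5:4104747-4104837, minus strand): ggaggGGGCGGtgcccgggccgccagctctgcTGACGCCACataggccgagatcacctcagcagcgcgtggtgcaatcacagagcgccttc
Lss (chr10:76531475-76531587, plus strand): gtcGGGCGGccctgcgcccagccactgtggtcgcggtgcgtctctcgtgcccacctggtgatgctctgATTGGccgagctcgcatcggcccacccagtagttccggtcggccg
Sc5d (chr9:42264301-42264410, minus strand): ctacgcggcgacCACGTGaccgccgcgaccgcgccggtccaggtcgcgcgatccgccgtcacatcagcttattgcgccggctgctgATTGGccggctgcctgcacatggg
Ebp (chrX:8193513-8193687, minus strand): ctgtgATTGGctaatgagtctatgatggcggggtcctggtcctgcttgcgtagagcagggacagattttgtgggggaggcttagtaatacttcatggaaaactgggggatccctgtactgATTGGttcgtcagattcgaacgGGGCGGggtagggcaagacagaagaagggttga

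The CCAAT box was in a window of 8 of the 8 genes (8 of 10 windows), against 37.4% of all 32851 windows and 37.8% of the windows of tested genes. The GC box was also in a window of 8 of the 8 genes (9 of 10 windows), against 35.7% of all windows and 65.5% of the windows of tested genes. *Ebp* held both motifs, as did the 7 genes whose levels differed more. An exact TCACNCCAC was in none of the 8 genes and in 1.24% of all windows (1.13% for tested genes). With 1 mismatch allowed it was in *Cyp51*, *Msmo1*, *Nsdhl*, *Hsd17b7* and *Dhcr7*, 5 of 8 genes and 5 of 10 windows, against 24.2% of all windows (24.9% for tested genes). The E-box was in *Hsd17b7*, *Sc5d* and *Dhcr7*, 3 of 8 genes and 3 of 10 windows, against 7.15% of all windows (10.5% for tested genes). The only matches to different motifs that overlapped were a CCAAT box and a match to TCACNCCAC with 1 mismatch in *Msmo1*, which share a base. Each match describes the letters of these windows and was not tested as a binding site.

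Between the groups, 8 of the 9 genes had higher levels in every StcE sample than in every saline sample, and *Ebp* was the exception. Over all 11062 genes, 4.85% had that pattern. By limma on log2(FPKM + 1) with Benjamini-Hochberg adjustment, where the threshold is an adjusted p below 0.05, the same 8 genes were past the threshold and higher, against 5.52% of all tested genes. The genes were chosen from this comparison, so neither count is evidence about them. The ratio of group means ran from 1.04 for *Ebp* to 3.28 for *Cyp51* and *Msmo1*, with a median of 1.91. The summed level of the 9 genes was 46.1 ± 1.61 FPKM in saline (mean ± SD, n = 5) and 94.7 ± 1.59 FPKM in StcE (n = 5), a 2.06-fold ratio. In bulk RNA, more transcript per cell cannot be told apart from a larger share of cells carrying it.

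**Figure D1:**
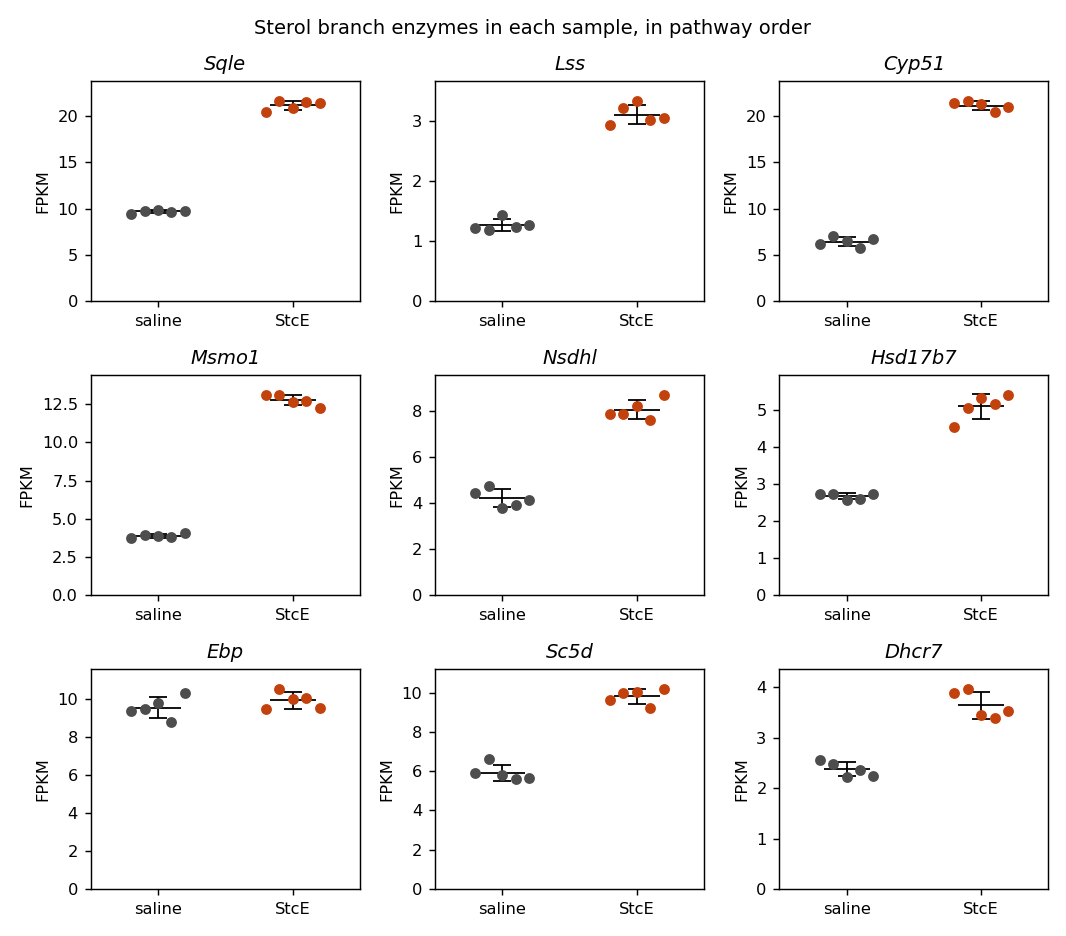
FPKM of each sterol branch gene in the 5 saline and 5 StcE samples, in pathway order, with every axis starting at 0. Points are samples, the long line is the mean and the short bars are 1 SD. The groups lie apart in 8 panels and overlap in that of *Ebp*, where saline spans 8.78 to 10.3 FPKM and StcE 9.49 to 10.6 FPKM.

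The first step of the branch is the epoxidation of squalene by *Sqle*, squalene epoxidase, a control point of the pathway. *Sqle* lies at chr15:59315077-59331192 on the plus strand (GRCm38, as are all positions of genes given here). Its level was 9.47, 9.71, 9.88, 9.68 and 9.79 FPKM in the saline samples. In the StcE samples it was 20.4, 21.6, 20.9, 21.5 and 21.4 FPKM. The 2 groups were tight and far apart, with a coefficient of variation of 1.56% in saline, the lowest of the 9 genes. Counting alone gives up to 2.85% for *Sqle*, so the 1.56% may understate its spread. The mean was 9.71 ± 0.151 FPKM in saline and 21.2 ± 0.496 FPKM in StcE (SD, n = 5 each), a ratio of 2.18 and a difference of 1.05 on the log2(FPKM + 1) scale (SE 0.0235).

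*Lss*, lanosterol synthase, folds the epoxide into lanosterol, the first sterol of the branch. The gene lies at chr10:76531588-76557138 on the plus strand. Saline samples held 1.22, 1.18, 1.43, 1.23 and 1.27 FPKM of *Lss* and StcE samples 2.94, 3.20, 3.33, 3.00 and 3.04 FPKM. The highest saline sample, replicate 3, was still below every StcE sample. The ratio of the means (1.27 ± 0.0974 and 3.10 ± 0.159 FPKM) was 2.45, the third largest of the branch. On the log2(FPKM + 1) scale its difference of 0.86 (SE 0.0442) ranked only the fourth, because the added 1 FPKM shrinks the difference of a low gene: without it the log2 ratio was 1.29. An exon of *4930483K19Rik* on the opposite strand covers 3.53% of the *Lss* exons, and whether fragments were counted by strand is not given in the sources used here.

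The methyl groups of lanosterol are removed next. *Cyp51*, lanosterol demethylase, is the cytochrome P450 of the branch and lies at chr5:4081145-4104746 on the minus strand. It was at 6.22, 7.06, 6.47, 5.72 and 6.72 FPKM in saline and at 21.3, 21.6, 21.3, 20.4 and 20.9 FPKM in StcE. The lowest StcE sample stood 2.90-fold above the highest saline sample. The means were 6.44 ± 0.507 and 21.1 ± 0.450 FPKM, with a ratio of 3.28 and the largest log2(FPKM + 1) difference of the 9 genes, 1.57 (SE 0.0432). The opposite-strand gene *Akap9* shares 3.76% of the *Cyp51* exon length.

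*Msmo1*, *Nsdhl* and *Hsd17b7* encode the oxidase, the decarboxylating dehydrogenase and the keto-reductase that work as a group on the remaining pair of methyl groups. *Msmo1* (chr8:64718139-64733792, minus strand) was at 3.76, 3.94, 3.90, 3.81 and 4.10 FPKM in saline and at 13.1, 13.1, 12.7, 12.7 and 12.3 FPKM in StcE. *Nsdhl* (chrX:72918557-72958514, plus strand) was at 4.46, 4.75, 3.78, 3.93 and 4.15 FPKM in saline and at 7.87, 7.88, 8.21, 7.64 and 8.71 FPKM in StcE. *Hsd17b7* (chr1:169949535-169969241, minus strand) was at 2.74, 2.74, 2.57, 2.61 and 2.74 FPKM in saline and at 4.54, 5.06, 5.34, 5.17 and 5.42 FPKM in StcE. All 3 genes were separated by group. *Msmo1* and *Nsdhl* overlapped in saline, while in StcE every sample had more *Msmo1* than *Nsdhl*. The ratio of means was 3.28 for *Msmo1*, 1.91 for *Nsdhl* and 1.90 for *Hsd17b7*. On the log2(FPKM + 1) scale the differences were 1.49 (SE 0.0290), 0.80 (SE 0.0524) and 0.73 (SE 0.0422). *Msmo1* therefore stood with *Cyp51*, which acts earlier in demethylation, rather than with the other two enzymes of its own complex.

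*Ebp* encodes the isomerase that moves a double bond within the sterol ring, and it lies at chrX:8185329-8193512 on the minus strand. Its saline levels were 9.38, 9.49, 9.80, 8.78 and 10.3 FPKM, and its StcE levels were 9.49, 10.6, 10.0, 10.1 and 9.54 FPKM. The groups overlapped: saline replicate 5 was above 4 of the StcE samples. The means, 9.56 ± 0.571 and 9.94 ± 0.437 FPKM, differed by 0.382 FPKM, less than the SD of either group. The log2(FPKM + 1) difference was 0.05 (SE 0.0412), and the ratio of an StcE sample to a saline sample ran from 0.919 to 1.20.

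*Sc5d*, a desaturase that introduces a ring double bond, lies at chr9:42251595-42264256 on the minus strand. Its levels were 5.90, 6.64, 5.82, 5.58 and 5.67 FPKM in saline and 9.63, 9.96, 10.0, 9.22 and 10.2 FPKM in StcE. *Dhcr7*, the reductase that yields cholesterol from its immediate precursor in one arm of the branch, lies at chr7:143823145-143848410 on the plus strand. Its levels were 2.55, 2.47, 2.23, 2.36 and 2.25 FPKM in saline and 3.89, 3.97, 3.45, 3.39 and 3.53 FPKM in StcE. The groups of both genes were apart. The ratio of means was 1.66 for *Sc5d* (5.92 ± 0.419 and 9.81 ± 0.392 FPKM) and 1.54 for *Dhcr7* (2.37 ± 0.140 and 3.64 ± 0.268 FPKM). Their log2(FPKM + 1) differences were 0.64 (SE 0.0427) and 0.46 (SE 0.0471).

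Along the branch, the differences did not step up or down in order. They were largest at *Cyp51* and *Msmo1*, in the early part of lanosterol demethylation, and smallest at *Ebp*, between *Hsd17b7* and *Sc5d*. Each StcE sample was set against the saline mean to see whether the order was shared. *Cyp51* and *Msmo1* were the top pair and *Lss* the third in 5 of 5 StcE samples, and *Ebp* was the lowest in 5 of 5. *Dhcr7* was the second lowest and *Sc5d* the third lowest in 4 of 5. These ratios share 1 saline mean per gene, so the 5 orders are not independent. The same StcE samples also set the order of the means, so the counts describe that order and do not test it. Without the pseudocount, the log2 ratios of the means were 1.71 for *Cyp51*, 1.71 for *Msmo1*, 1.29 for *Lss*, 1.12 for *Sqle*, 0.94 for *Nsdhl*, 0.93 for *Hsd17b7*, 0.73 for *Sc5d*, 0.62 for *Dhcr7* and 0.057 for *Ebp*.

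The enzymes that act around these 9 were compared in the same way, from lists written with earlier results of these data known. Counts and adjusted p-values for these lists, here and below, are therefore a description and no independent test. *Lbr* and *Tm7sf2* are 2 other sterol branch enzymes, which both reduce a double bond after *Cyp51*. *Lbr*, which is also a nuclear envelope protein, rose from 25.6 ± 0.962 to 28.7 ± 0.651 FPKM (log2 difference 0.16, limma adjusted p = 0.0044 with Benjamini-Hochberg adjustment). *Tm7sf2* was below the limit and untested, with means of 0.342 FPKM in saline and 0.625 FPKM in StcE. Each of these levels is per kilobase of gene, and of the paired reductases *Lbr* was the more abundant in both groups.

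Of 8 listed enzymes upstream of squalene, 7 were tested and all 7 rose, against 5.52% of all tested genes, with a median log2 difference of 0.75 against -6.6e-04 over all tested genes and 0.80 over the 9 sterol branch genes. *Idi1*, which isomerises the isoprene unit, rose from 4.69 to 14.1 FPKM (log2 difference 1.41). *Hmgcs1*, which makes HMG-CoA, rose from 7.55 to 18.6 FPKM (1.20), and *Fdft1*, which makes squalene itself, from 5.86 to 12.5 FPKM (0.97). *Mvd*, *Acat2*, *Mvk* and *Pmvk* had differences of 0.75, 0.65, 0.50 and 0.42. *Fdps*, the other enzyme of the list, was untested with only 6 to 46 fragments per sample and means of 0.0816 and 0.300 FPKM. Transcripts of *Fdps* were not searched for copies in other genes, so a loss of shared fragments was not tested and its true level may be higher.

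**Figure D2:**
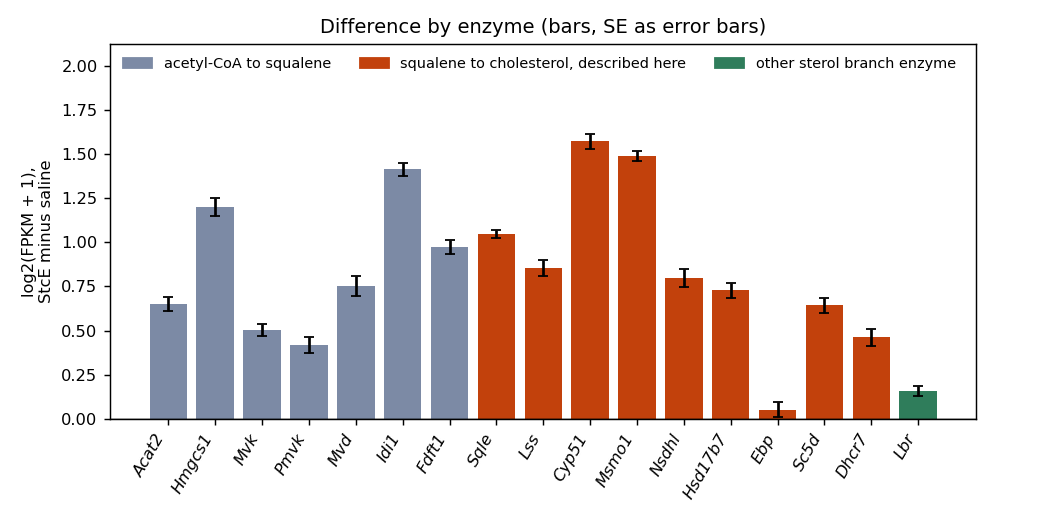
Difference between StcE and saline in mean log2(FPKM + 1) for 17 tested enzymes between acetyl-CoA and cholesterol, with the standard error as error bars (5 samples a group). Grey-blue bars lead to squalene, orange bars are the 9 genes described here and the green bar is another sterol branch enzyme, and *Ebp* at 0.05 and *Lbr* at 0.16 stand well below the rest, of which the smallest is *Pmvk* at 0.42.

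Several sterol branch enzymes draw electrons from cytochrome P450 reductase or cytochrome b5, and *Erg28* encodes a scaffold of the demethylation complex. Of 6 such genes, 2 rose and none fell (5.52% and 6.41% of all tested genes), with a median log2 difference of -0.024. *Cyb5b*, the outer mitochondrial cytochrome b5, rose from 84.1 to 102.9 FPKM (log2 difference 0.29, limma adjusted p = 1.4e-05 with Benjamini-Hochberg adjustment), and *Erg28* rose from 5.09 to 6.54 FPKM (0.31, limma adjusted p = 0.0019). *Por*, which reduces *Cyp51* and *Sqle*, had 58.4 and 57.1 FPKM and was not past the threshold, nor were *Cyb5a*, *Cyb5r3* and *Pgrmc1*.

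Of 7 genes for sterol sensing and SREBP processing, 2 rose and 1 fell (5.52% and 6.41% of all tested genes), with a median log2 difference of 0.028. *Insig1*, which holds SREBP in the endoplasmic reticulum and is itself an SREBP target, rose from 13.0 to 37.5 FPKM (log2 difference 1.46, limma adjusted p = 3.8e-10). *Srebf2*, which encodes SREBP2, rose from 17.8 to 29.6 FPKM (0.70, limma adjusted p = 2.8e-07). *Scap*, the escort of SREBP, fell from 7.89 to 7.05 FPKM (-0.14, limma adjusted p = 0.0172). *Srebf1* had 19.2 and 20.9 FPKM (0.12, limma adjusted p = 0.0798), and *Insig2* and the proteases *Mbtps1* and *Mbtps2* were also not past the threshold. Of 6 genes that act in the sterol-regulated breakdown of enzymes of the pathway, none rose and 1 fell, against 6.41% of all tested genes that fell, with a median of -0.060. That one was *Rnf145*, a ubiquitin ligase, at 22.0 FPKM in saline and 19.8 FPKM in StcE (-0.15, limma adjusted p = 0.0414), a call lost in 12 of 19 alternative fits, while *March6*, the ligase for squalene epoxidase, had 10.9 and 10.5 FPKM. Of 6 genes of sterol esterification and oxysterol synthesis, *Soat1* (9.30 and 10.0 FPKM) and *Ch25h* (48.0 and 49.6 FPKM) were tested and neither passed the threshold.

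The levels of the 9 genes were then ranked within a group. By FPKM, which here divides by the length of all exons of a gene, the saline order was *Sqle*, *Ebp*, *Cyp51*, *Sc5d*, *Nsdhl*, *Msmo1*, *Hsd17b7*, *Dhcr7* and *Lss*, and the highest mean was 7.66-fold the lowest. The ranges of *Sqle* and *Ebp* overlapped, as did those of *Cyp51* and *Sc5d* and those of *Nsdhl* and *Msmo1*, although within the same library *Cyp51* was above *Sc5d* in 5 of 5 samples and the neighbour named first in each other pair was the higher in 4 of 5. In StcE the order was *Sqle*, *Cyp51*, *Msmo1*, *Ebp*, *Sc5d*, *Nsdhl*, *Hsd17b7*, *Dhcr7* and *Lss*. There the overlapping neighbours were *Sqle* with *Cyp51* (21.2 and 21.1 FPKM) and *Ebp* with *Sc5d* (9.94 and 9.81 FPKM). Within the same library *Sqle* was above *Cyp51* in 3 of 5 samples and *Ebp* above *Sc5d* in only 2 of 5. By the means, *Ebp* thus went from the second place to the fourth with nearly the same level, and *Cyp51* and *Msmo1* passed it. Its place relative to *Sc5d* in StcE is not settled.

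The order depends on the length used. The exons of *Lss* add up to 10787 bases, but its principal transcript has 4667, and for *Msmo1* the lengths are 6144 and 2044 bases. Per kilobase of the principal transcript, on the scale of FPKM, the saline levels were 19.5 for *Sqle*, 12.7 for *Ebp*, 11.7 for *Msmo1*, 7.23 for *Cyp51*, 6.02 for *Sc5d*, 5.55 for *Nsdhl*, 4.90 for *Dhcr7*, 2.97 for *Hsd17b7* and 2.93 for *Lss*. *Msmo1* moved from the sixth place to the third. Neighbours with overlapping ranges were *Ebp* and *Msmo1*, *Cyp51* and *Sc5d*, *Sc5d* and *Nsdhl*, *Nsdhl* and *Dhcr7*, and *Hsd17b7* and *Lss*. Within the same library *Hsd17b7* was above *Lss* in 4 of 5 samples, and the first of each other pair was the higher in 5 of 5. In StcE the lowest level on this scale was that of *Hsd17b7* (5.65), with *Lss* at 7.17. *Sqle* had the highest mean in both groups on both scales. The ratio between the groups is the same for either length, since a length cancels within a gene.

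**Figure D3:**
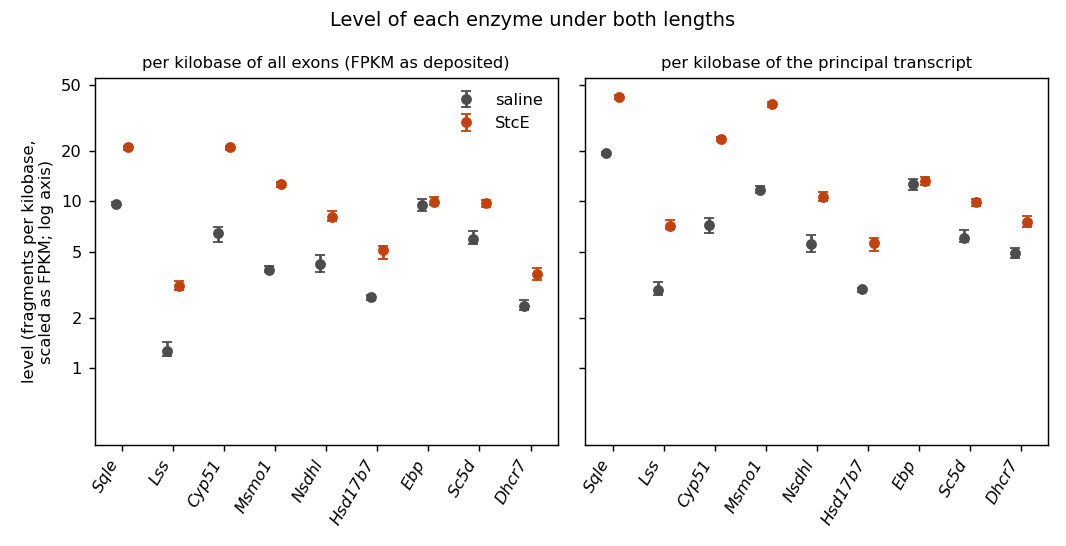
Mean level of each gene in saline (grey) and StcE (orange) on a log axis, with bars from the lowest to the highest of 5 samples. The left panel is FPKM as deposited and the right panel divides by the principal transcript instead, where the saline level of *Msmo1* is 11.7 rather than 3.90 and that of *Lss* 2.93 rather than 1.27, while the gap between the groups of each gene is the same in both.

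Fragments per gene and sample ran from 257 (*Nsdhl*) to 4170 (*Sqle*), which gives a coefficient of variation from counting alone of at most 6.24%. The measured coefficients of variation were 1.56% to 9.42% in saline and 2.13% to 7.35% in StcE. In saline those of *Sqle* (1.56%), *Hsd17b7* (3.04%) and *Msmo1* (3.34%) were below the largest from counting for the same gene (2.85%, 5.72% and 4.32%). Some transcripts hold stretches of 150 bases or more that match transcripts of other genes at 95% identity or better. Such copies cover 33.1% of one processed transcript of *Dhcr7*, with matches in 23 genes, and 7.11% of one transcript of *Msmo1*, with matches in 56 genes. For *Lss* and *Cyp51* they are the opposite-strand overlaps named above, and the other 5 genes had none. The values of *Dhcr7* and *Msmo1* are uncertain to the extent that fragments from these stretches were shared.

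Within the groups the 9 genes moved little and not as a block. After each group was centred on its own mean, Pearson's r between genes over 10 samples had a median of 0.12 over the 36 pairs, and 23 pairs were above 0. It ran from -0.44 for *Msmo1* with *Hsd17b7* to 0.80 for *Nsdhl* with *Sc5d*. These points share libraries and their scaling, and r is given as a description. Saline replicate 4, the shallowest saline sample, was below its group mean for all 9 genes, by 0.054 on average on the log2(FPKM + 1) scale. Saline replicate 2 was the highest, by 0.047, with 7 of 9 genes above the mean. The part of depth in this was not tested, and without saline replicate 4 the same number of genes, 8, was past the threshold and higher.

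**Figure D4:**
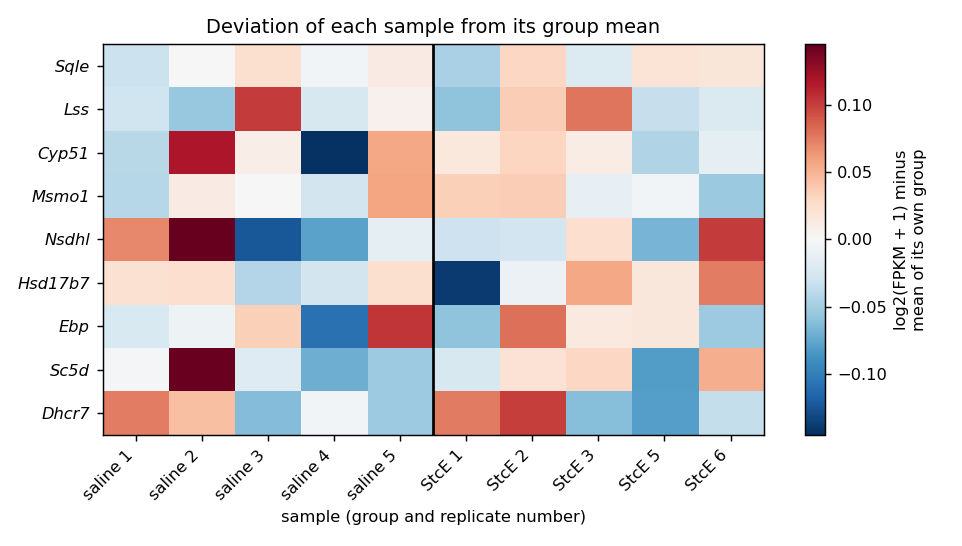
Deviation of each gene in each sample from the mean of its own group, in log2(FPKM + 1), with genes in pathway order. Red is above and blue below the group mean, and the column of saline replicate 4 is blue for all 9 genes (mean -0.054), whereas single genes such as *Nsdhl* differ in sign between the other saline samples.

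The genes outside the 9 with profiles most like their mean profile over the 10 samples were *Fdft1* and *Idi1* (Pearson's r 0.998 for each), *Stard4* (0.996), *Elovl6* (0.994) and *Fads2* (0.994). *Stard4* carries sterol between membranes and rose from 17.3 to 25.5 FPKM, and *Elovl6* and *Fads2*, which lengthen and desaturate fatty acids, rose from 7.32 to 12.1 and from 17.6 to 32.9 FPKM. These correlations rest mainly on the gap between the groups. After centring each group on its own mean, the 5 most alike were *Zfp825* (0.97), *Zfp870*, *Mtfr1*, *Acad11* and *Zcchc4*, and none of the first 5 was among them. The 10 points are 10 libraries, and no test was made.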

How the data were processed

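RNA of bEnd.3 cells was measured in 10 samples, 5 given saline and 5 given StcE. The authors made poly(A)-selected, strand-specific libraries and deposited FPKM per gene and sample. The submitters' processing notes name HISAT2 2.0.5, featureCounts 1.5.0-p3, DESeq2 1.32.0 and mm10. The annotation release and the strand setting of the counting are not given in the sources used here. A further 22874 rows of the table had no gene name and were left out, and 12 gene names were repeated on further rows.

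The members and lists were chosen with earlier results of these data known. Genes with a mean of at least 1 FPKM (11062) were fitted on the log2(FPKM + 1) scale by limma 3.58.1, run in R 4.3.3 (eBayes with trend, group as the sole term, two-sided) with Benjamini-Hochberg adjustment, since the deposited values are not counts. A difference on this scale understates the change of low genes. Depth was recovered from FPKM with GENCODE vM21 exon lengths: 96.6% of values above 0 were within 0.05 of a whole fragment, over 26704 matched genes. Counting error does not cover library preparation. Voom on these fragments called 1494 genes of 10440. Copies of transcripts were searched with BLAST 2.17.0, and promoters come from RefSeq (GRCm38.p6).

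Genes named are the 9 enzymes, genes of the lists that pass the filter, with those below it given as untested (some pathway genes are not reported here), and the 5 most correlated genes over all samples and within groups. The fit was tested on simulated data. Alternatives were other pseudocounts, filters, scalings and tests, the replicate number as a block and each sample left out. The principal transcript length was added after seeing the data.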

Additional observations from a re-analysis of the deposited data

How the results depend on the processing

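In 19 alternative fits, the same 8 of the 9 sterol branch genes were past the threshold and higher each time, and *Ebp* was never past it, with log2 differences of 0.025 to 0.078. The genes were chosen from this comparison, so this is no evidence of stability. Of 25 listed or named genes outside the 9 that were past the threshold, none changed direction and 16 were past it in every fit that tested them. The calls of *Scap*, *Tie1*, *Tek* and *Flt1* were lost only with the replicate block, while those of *Rnf145*, *Pecam1*, *Erg*, *Egfl7* and *Esam* were lost in 12 to 17 fits. Of 22 such genes not past it, *Srebf1*, *Cdh5* and *Kdr* passed in at least 1 fit. *Srebf1* passed with scaling by total fragments (adjusted p = 0.0423) and with voom (0.0438). The median log2 difference of the 9 genes was 0.80 in the reported fit, 0.92 with a pseudocount of 0.1 and 0.93 with voom on fragments. The latter settings shrink low genes less, by their construction. Over all genes, 1320 were past the threshold (611 higher). Without a filter on low FPKM, which tests 27024 genes, 801 were past it (392 higher). Leaving out 1 sample at a time gave 793 to 1255 genes (384 to 588 higher). The lowest counts were 793 without StcE replicate 3 and 838 without saline replicate 1, and the cause was not tested.

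The replicate numbers shared by the groups (1, 2, 3 and 5) do not pair the samples by any label. The correlations of their deviations from the group means across genes were -0.097, -0.023, -0.027 and 0.054. With the replicate block over these 8 samples, 349 genes were past the threshold (187 higher). When the block was dropped from these 8 samples, the count was 885 (433 higher). The block changed no call among the 9 genes. Every scaling moved the median of all genes by less than 0.01 on the log2 scale.

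Levels per kilobase of the principal transcript, a scale chosen after seeing the data, changed the order of the genes but not a ratio between groups. Depth limits *Nsdhl*, *Lss*, *Hsd17b7* and *Dhcr7* most, and *Tm7sf2* and *Fdps* were below the filter and untested in the reported fit. The ranges of *Tm7sf2* were 0.248 to 0.427 FPKM in saline and 0.552 to 0.709 FPKM in StcE. Those of *Fdps* were 0.0469 to 0.116 FPKM in saline and 0.267 to 0.339 FPKM in StcE. The groups did not overlap in either gene, at these low levels.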
